A study of Mus musculus with 44 samples.

Results

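The data described here are the 6 libraries labelled KO that were prepared from tumour-bearing mice at ZT3 and ZT15, of 44 libraries in all. The libraries were chosen by their labels alone, 3 at ZT3 (3 h after light onset) and 3 at ZT15 (3 h after dark onset), each from 1 mouse. All 6 mice were adult females of the *Clec9a-cre:Bmal1flox* genotype (Bmal1ΔcDC), in which *Bmal1* (*Arntl*) is floxed and Cre is driven from the *Clec9a* locus, which is active in conventional dendritic cells (DCs) and their precursors. All 6 had received B16-F10-OVA cells, a mouse melanoma line that expresses ovalbumin, and 24 h later CD45+CD11c+MHCIIhigh cells were sorted from the draining inguinal lymph node (LN). The comparison asks how expression in these cells differed between the light and the dark phase when the clock gene was targeted in conventional DCs. Mice labelled WT are given for reference: control mice with the same tumour cells (5 per timepoint) and sham-injected mice that received PBS (3 per timepoint). Cells in the gate in which *Clec9a-cre* was never active keep the gene, and the labels do not say which mice were handled together.

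The molecular clock is a feedback loop in which BMAL1 and CLOCK bind E-boxes and switch on the *Per*, *Cry* and *Nr1d* genes, whose products then repress BMAL1, CLOCK or their transcription. Other daily signals, among them glucocorticoids, body temperature and feeding, act on immune cells independently of the cell's own clock. Conventional DCs carry tumour antigen to the LN and prime T cells there through MHC molecules and co-stimulatory ligands such as CD80.

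Reads on genes numbered between 29406729 and 55799162 in the 6 libraries, and the authors deposited them as CPM, the reads of a gene scaled to a fixed library total. Between 10911 and 11111 genes reached 1 CPM in a library. Across the 11963 genes tested, libraries correlated with r from 0.953 to 0.967 within ZT3, from 0.952 to 0.965 within ZT15 and from 0.946 to 0.965 between the timepoints, so that the groups did not separate on this measure. The median SD of a gene was 0.27 on the log2 scale at ZT3 and 0.26 at ZT15. Genes of mature DCs were abundant in each library: *Ccr7*, the receptor that guides DCs to the LN, was measured at 5254, 5212 and 5568 CPM at ZT3 and at 4639.8, 5629 and 6501 CPM at ZT15, and *Cd74*, the MHC class II chaperone, at 9455 to 16782 CPM over the 6 libraries. Of 7 genes that mark melanoma cells, 2 reached the expression filter, and these 2 added up to 1.16–12.5 CPM in a library.

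*Arntl* (chromosome 7, 113178471–113314126 of GRCm38.p6), the targeted gene, was measured at 20.8, 23.9 and 14.8 CPM at ZT3 and at 21.6, 13.9 and 17.2 CPM at ZT15. The timepoints overlapped (log2 difference −0.16, standard error 0.31, limma, unadjusted p over 0.05). In control mice with tumour cells the level was 16.5 ± 5.07 CPM at ZT3 and 11.5 ± 2.56 CPM at ZT15 (mean ± SD of 5 mice), so that the KO label did not go with a lower *Arntl* level. Whole-gene totals do not show whether the floxed exon was read, and the libraries are therefore named by their label.

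Differences between the timepoints were tested on log2(CPM + 0.5) with limma, which used the 12 libraries labelled KO at all 4 timepoints to estimate the spread. No gene passed an adjusted p of 0.05 (0 of 11963, smallest adjusted p = 0.157), whereas the unadjusted p was under 0.05 for 964. Of these, 771 were higher at ZT15 (6.44% of the genes tested) and 193 were lower at ZT15 (1.61%). These shares are the background against which each gene group below is read, and higher and lower below refer to an unadjusted limma p under 0.05, so that no such difference passed the adjustment over all genes. Adjusted p-values are given for single genes, and of a comparison within control or sham-injected mice or an interaction it is stated on which side of 0.05 the unadjusted p lay. With the spread estimated over all 44 libraries, 59 genes passed the adjustment, 51 of them higher and 8 lower at ZT15. The number that passed was 3 without ZT15 replicate 1, and 1 without ZT15 replicate 3, without ZT21 replicate 1 or without ZT21 replicate 3. Without ZT15 replicate 1, the 193 lower genes became 127.

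The excess of higher genes depended in part on scaling. With the deposited scaling, 80.0% of the genes with p under 0.05 were higher at ZT15, and the median log2 difference of all genes was 0.09. With median-of-ratios scaling, 517 genes were higher and 324 lower (61.5% higher), and the median was 0.01. The difference also varied with transcript length, with a median of −0.03 in the fifth of genes with the shortest transcripts and 0.16 in the fifth with the longest (11958 genes with a length).

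Among genes with a mean of at least 5 CPM, those of small p that were higher at ZT15 included *Dbp*, *Tsc22d3*, *Hspa1b* and *Hspa1a*, which are described with their groups below, and *Mef2c*, *Man2a2*, *Ms4a6d*, *Fbxl14*, *Tbc1d10b*, *Jdp2* and *Atp13a2*. *Mef2c*, a transcription factor of myeloid and lymphoid cells, had 5.95, 3.86 and 4.79 CPM at ZT3 and 12.8, 15.2 and 11.5 CPM at ZT15 (log2 difference 1.36, standard error 0.23, adjusted p = 0.176). *Man2a2*, a Golgi enzyme of N-glycan processing, had 2.63, 4.76 and 2.03 CPM at ZT3 and 18.2, 12.6 and 15.4 CPM at ZT15, and *Jdp2*, a repressor that binds AP-1 sites, had 2.28, 1.98 and 1.85 CPM against 8.65, 16.6 and 8.60 CPM. *Atp13a2*, a lysosomal transporter, was measured at 18.9, 17.4 and 25.7 CPM at ZT3 and at 44.5, 42.0 and 40.6 CPM at ZT15. The libraries of the timepoints did not overlap for any of these genes, which were chosen for a small p. Among all genes tested, 12% did not overlap and were higher at ZT15, and 5.62% did not overlap and were lower.

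**Figure D1:**
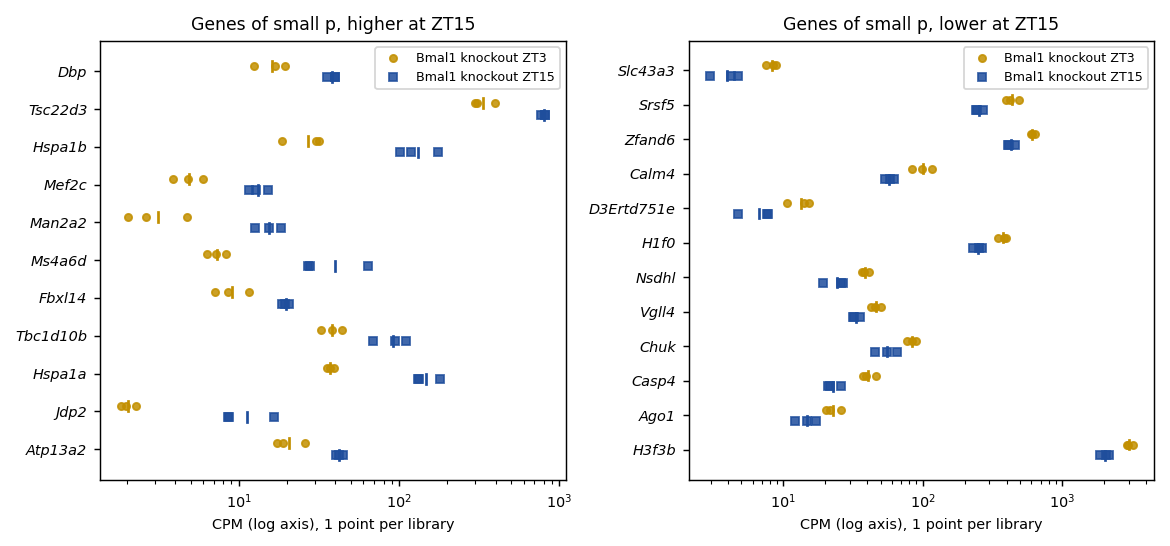
CPM of genes of small p in each direction, on a log axis, with 1 point per library (circles, ZT3; squares, ZT15) and the mean of 3 libraries as a vertical line. The points of the timepoints are separate for every gene shown, as they are for 12% (higher) and 5.62% (lower) of all genes, and no gene passed the adjustment over 11963 genes.

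The lower genes had smaller differences. *Srsf5* (chromosome 12, 80945495–80950507), which encodes a splicing factor, was measured at 493, 425 and 394 CPM at ZT3 and at 240, 270 and 244 CPM at ZT15 (0.575-fold, log2 difference −0.79, standard error 0.15, adjusted p = 0.238). In control mice with tumour cells the same gene had 275 ± 65.8 and 175 ± 70.4 CPM (mean ± SD of 5 mice, unadjusted p under 0.05), and means of 435 and 289 CPM in sham-injected mice (unadjusted p under 0.05). *Srsf5* was thus lower at ZT15 in each of the 3 sets of mice. *Slc43a3*, a nucleobase transporter, had 8.41, 7.48 and 8.89 CPM at ZT3 and 4.69, 4.18 and 2.96 CPM at ZT15 (adjusted p = 0.225). *H1f0*, a linker histone, had 384, 396 and 348 CPM against 227, 266 and 253 CPM (adjusted p = 0.442), and *H3f3b*, which encodes histone H3.3, had means of 3032 and 2042 CPM (adjusted p = 0.447). *H1f0* was also lower at ZT15 in control (unadjusted p under 0.05) and sham-injected mice (unadjusted p under 0.05). The other genes of this group were *Zfand6*, *Calm4*, *D3Ertd751e*, *Nsdhl*, an enzyme of cholesterol synthesis, *Vgll4*, *Chuk*, the kinase IKKα of the NF-κB pathway, *Casp4*, an inflammatory caspase, and *Ago1*, a protein of RNA silencing. Their log2 differences lay between −0.96 for *D3Ertd751e* and −0.47 for *Vgll4*.

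Some clock genes were higher at ZT15 in the libraries labelled KO, and most had an unadjusted p over 0.05. Of 18 genes tested in 3 lists, 5 were higher at ZT15 and 0 lower (backgrounds of 6.44% and 1.61%): *Nr1d1* of 7 activators and nuclear receptors, *Per1*, *Cry1* and *Ciart* of 7 repressors, and *Dbp* of 4 output genes. All 7 repressors had a positive log2 difference, with a median of 0.94 against 0.09 for all genes, and 6 of the 7 with median-of-ratios scaling. Without ZT3 replicate 2 or without ZT15 replicate 2, 2 repressors were higher.

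The 250 bases before the start site of *Per1*, *Cry1* and *Ciart* are shown because these 3 of the 5 higher clock genes hold the E-box CACGTG, the sequence to which BMAL1 and CLOCK bind. It reads the same on both strands and is given in capitals (RefSeq, GRCm38.p6). The letters occur in 6.02% of 32851 such windows of all genes and in 8.09% of those of the genes tested. They occur in 5 of 20 windows of clock genes, which belong to 4 of the 15 clock genes with a window. The windows of *Dbp* and *Nr1d1* do not hold them. The windows are chr11:69098699-69098948 (plus strand) for *Per1*, chr10:85185055-85185304 (minus strand) for *Cry1* and chr3:95882229-95882478 (minus strand) for *Ciart*. Counted from the start site, the E-box begins at −166 in *Per1*, at −60 in *Cry1*, and at −116, −58 and −44 in *Ciart*. A second listed start of *Per1* has no match in its window.
Per1: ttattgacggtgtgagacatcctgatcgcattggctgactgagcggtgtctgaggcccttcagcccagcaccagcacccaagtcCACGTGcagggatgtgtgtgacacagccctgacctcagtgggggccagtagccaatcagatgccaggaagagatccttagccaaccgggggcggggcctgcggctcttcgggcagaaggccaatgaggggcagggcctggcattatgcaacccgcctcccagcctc
Cry1: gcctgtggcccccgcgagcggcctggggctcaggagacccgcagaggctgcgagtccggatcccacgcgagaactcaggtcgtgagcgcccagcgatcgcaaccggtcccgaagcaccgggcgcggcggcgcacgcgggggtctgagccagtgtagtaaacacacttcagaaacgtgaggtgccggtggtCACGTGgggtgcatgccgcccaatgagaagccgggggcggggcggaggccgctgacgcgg
Ciart: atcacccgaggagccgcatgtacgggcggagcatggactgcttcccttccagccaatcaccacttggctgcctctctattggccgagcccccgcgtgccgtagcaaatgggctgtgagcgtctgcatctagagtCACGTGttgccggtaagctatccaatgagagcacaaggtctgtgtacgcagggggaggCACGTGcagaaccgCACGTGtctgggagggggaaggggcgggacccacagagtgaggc

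*Dbp* (chromosome 7, 45705100–45710203), a transcription factor under direct control of the clock, was measured at 12.4, 16.9 and 19.3 CPM at ZT3 and at 39.6, 35.3 and 40.1 CPM at ZT15. The timepoints did not overlap (2.37-fold, log2 difference 1.24, standard error 0.18, adjusted p = 0.157). *Dbp* had 23.7 ± 5.81 and 43.99 ± 3.23 CPM (mean ± SD of 5 mice) at these timepoints in control mice with tumour cells, and in sham-injected mice it had means of 24.1 and 51.6 CPM. The log2 difference was 0.91 and 1.08 in these sets, and that in the libraries labelled KO exceeded that in control mice by 0.32 (standard error 0.23, interaction unadjusted p over 0.05). *Per1* (chromosome 11, 69095108–69109965), a repressor of the clock that glucocorticoids also induce, had 4.97, 4.36 and 5.52 CPM at ZT3 and 13.4, 12.999 and 11.4 CPM at ZT15 (log2 difference 1.27, standard error 0.35, adjusted p = 0.442). In control mice, *Per1* had means of 11.05 and 14.1 CPM (log2 difference 0.36, unadjusted p over 0.05), and the interaction had an unadjusted p under 0.05 (log2 0.91, standard error 0.38). All 3 libraries labelled KO at ZT3 were below the 5 control libraries, which ranged from 6.80 to 14.7 CPM.

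*Cry1* (chromosome 10, 85131700–85185054), a repressor of BMAL1 and CLOCK, was measured at 8.30, 10.9 and 15.6 CPM at ZT3 and at 22.9, 20.6 and 22.3 CPM at ZT15 (1.90-fold, log2 difference 0.94, standard error 0.24, adjusted p = 0.414). Control mice had means of 8.74 and 9.44 CPM (log2 difference 0.05, unadjusted p over 0.05), sham-injected mice had 11.1 and 21.4 CPM (log2 difference 0.90, unadjusted p under 0.05), and the interaction with control mice had an unadjusted p under 0.05. *Cry1* thus differed between the timepoints in the libraries labelled KO and in sham-injected mice. *Nr1d1*, which encodes the repressor REV-ERBα, had 3.41, 2.01 and 4.59 CPM at ZT3 and 4.95, 8.07 and 9.28 CPM at ZT15 (log2 difference 1.06, adjusted p = 0.484, and unadjusted p over 0.05 in the fit over 44 libraries). *Ciart*, a repressor of low expression, had 0.983, 0.302 and 1.18 CPM at ZT3 and 2.30, 2.79 and 1.63 CPM at ZT15 (log2 difference 1.10, adjusted p = 0.504), and its unadjusted p was over 0.05 without ZT15 replicate 2, without ZT3 replicate 2 and in the fit over 44 libraries. *Nr1d2* had 17.7, 19.5 and 15.1 CPM at ZT3 and 32.4, 11.2 and 32.4 CPM at ZT15, where replicate 2 was below all others (unadjusted p over 0.05, and under 0.05 without it). *Clock*, *Npas2*, *Rora*, *Per2*, *Per3*, *Cry2*, *Bhlhe40*, *Tef*, *Hlf* and *Nfil3* had an unadjusted p over 0.05, with log2 differences from −0.54 (*Npas2*) to 1.01 (*Per2*).

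**Figure D2:**
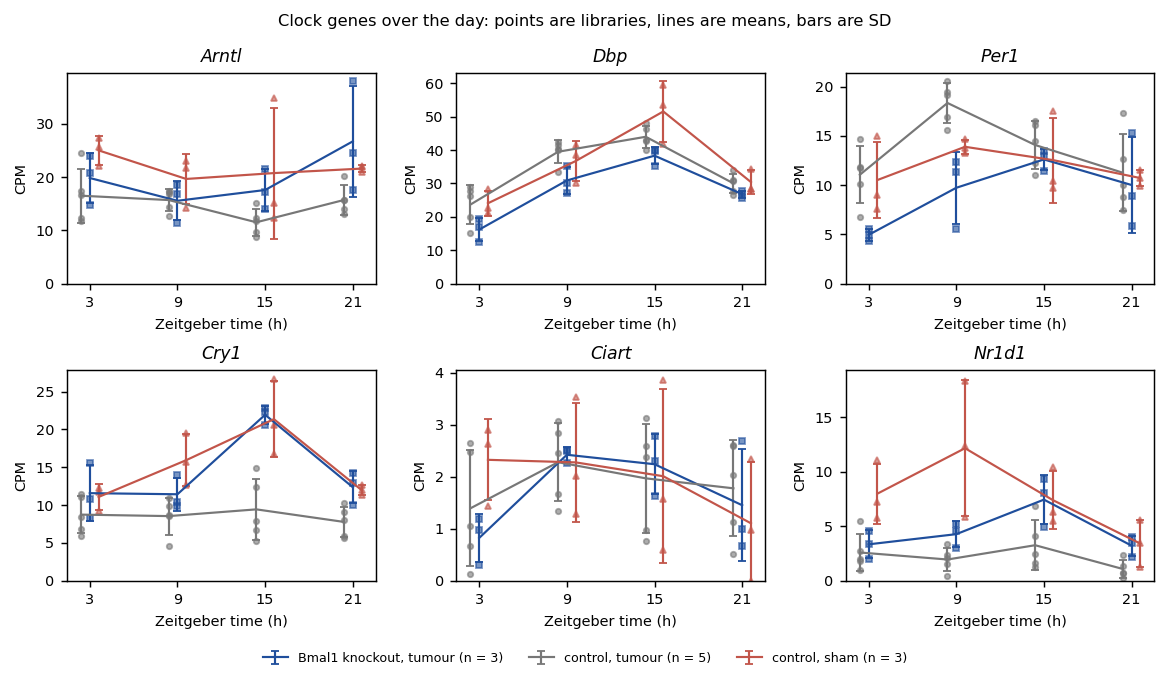
CPM of 6 clock genes against zeitgeber time in libraries labelled KO (blue squares, n = 3 per timepoint), control mice with tumour cells (grey circles, n = 5) and sham-injected mice (red triangles, n = 3), with means as lines and SD as bars. *Dbp* is highest at ZT15 in all 3 sets, *Cry1* is high at ZT15 in libraries labelled KO and sham-injected mice, and *Arntl* is at ZT3 and ZT15 not lower in libraries labelled KO than in control mice with tumour cells.

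*Tsc22d3* (chromosome X, 140539528–140600522), which encodes the glucocorticoid-induced leucine zipper GILZ, was among the genes with the clearest separation. It was measured at 297, 309 and 396 CPM at ZT3 and at 770, 810 and 812 CPM at ZT15 (2.39-fold, log2 difference 1.27, standard error 0.20, adjusted p = 0.176). In control mice with tumour cells the means were 225 and 298 CPM (log2 difference 0.41, unadjusted p under 0.05), and in sham-injected mice 249 and 335 CPM (log2 difference 0.43, unadjusted p under 0.05). *Tsc22d3* was thus higher at ZT15 in all 3 sets, and the difference in the libraries labelled KO exceeded that in control mice by 0.86 (standard error 0.21, interaction unadjusted p under 0.05, adjusted p = 0.146). Of 15 tested genes of the glucocorticoid receptor and its targets, 3 were higher and 0 lower at ZT15, with a median of 0.26. Besides *Tsc22d3* and *Per1* this was *Fkbp5*, a co-chaperone of the receptor, with 46.1, 52.0 and 56.1 CPM at ZT3 and 86.2, 96.9 and 67.5 CPM at ZT15 (log2 difference 0.68, adjusted p = 0.493). The receptor gene *Nr3c1* had 117, 98.1 and 102 CPM at ZT3 and 139, 111 and 129 CPM at ZT15 (adjusted p = 0.759), and the target *Klf9* had an unadjusted p over 0.05. Of the 15 genes, 6 had a negative log2 difference, the lowest −1.01. Without ZT15 replicate 2, 3 genes of this list were higher and 1 lower, with a median of 0.15.

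Of 24 chaperones and co-chaperones tested, 9 were higher and 0 lower (*Hspa1b*, *Hspa1a*, *Dnaja1*, *Dnajb1*, *Hspa8*, *Bag3*, *Stip1*, *Hsph1* and *Hspd1*), with a median log2 difference of 0.26. The count was also 9 without ZT15 replicate 2, and it was 6 without ZT15 replicate 1. Summed over the list, expression was 6107, 5916 and 6243 CPM at ZT3 and 8149, 7523 and 7128 CPM at ZT15, without overlap. The subunits of the chaperonin CCT and *Hsp90ab1* had no p under 0.05, and *Hsp90aa1* had 289 ± 32.8 and 340 ± 49.7 CPM (mean ± SD of 3 mice, adjusted p = 0.793).

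The windows of *Hspa1a* and *Hspa1b*, 2 neighbouring genes for inducible HSP70, and that of *Hsph1*, a partner of HSP70, are shown because these genes had the largest log2 differences of the list. The heat shock element is made of inverted GAA units, and the search was for GAANNTTC or TTCNNGAA, which each read the same on both strands. Such letters, in capitals, occur in 12.8% of the 32851 windows and in 10.2% of those of the genes tested. They occur in 10 of 27 windows of heat shock genes, which belong to 9 of 20 genes with a window, 5 of them among the 8 higher genes with one. The windows are chr17:34972157-34972406 for *Hspa1a*, chr17:34959239-34959488 for *Hspa1b* and chr5:149636337-149636586 for *Hsph1*, all on the minus strand of GRCm38.p6 (RefSeq). The match begins at −104 from the start in both *Hspa1* genes and at −33 in *Hsph1*. The *Hspa1* windows are identical at 247 of 250 bases.
Hspa1a: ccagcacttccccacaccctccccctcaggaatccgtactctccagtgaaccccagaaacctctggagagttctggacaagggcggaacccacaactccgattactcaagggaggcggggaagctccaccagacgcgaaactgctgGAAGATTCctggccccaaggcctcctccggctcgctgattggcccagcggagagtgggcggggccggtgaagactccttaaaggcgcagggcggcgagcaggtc
Hspa1b: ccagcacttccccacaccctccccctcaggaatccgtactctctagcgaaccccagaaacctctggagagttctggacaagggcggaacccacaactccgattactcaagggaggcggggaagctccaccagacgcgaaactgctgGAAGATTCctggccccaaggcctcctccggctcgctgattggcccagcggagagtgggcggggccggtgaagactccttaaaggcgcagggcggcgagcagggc
Hsph1: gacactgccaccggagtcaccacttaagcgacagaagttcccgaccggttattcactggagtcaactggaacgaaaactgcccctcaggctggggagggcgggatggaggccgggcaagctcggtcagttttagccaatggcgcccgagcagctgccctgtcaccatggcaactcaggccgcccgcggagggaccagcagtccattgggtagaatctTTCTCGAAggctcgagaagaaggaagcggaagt

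*Hspa1a* was measured at 39.3, 35.5 and 37.2 CPM at ZT3 and at 134, 179 and 130 CPM at ZT15 (3.96-fold, log2 difference 1.96, standard error 0.35, adjusted p = 0.207). *Hspa1b* had 31.6, 30.4 and 18.6 CPM at ZT3 and 119, 175 and 101 CPM at ZT15 (4.90-fold, log2 difference 2.27, standard error 0.36, adjusted p = 0.176). The genes are nearly identical in sequence and their values were fractions of a read in all 6 libraries, so that their shares of the reads are uncertain. *Hsph1* had 20.5, 35.0 and 37.5 CPM at ZT3 and 68.9, 48.1 and 65.3 CPM at ZT15 (log2 difference 0.99, adjusted p = 0.513). *Hspa8*, the constitutive HSC70, had 1696, 1722 and 1867 CPM at ZT3 and 2725, 2351 and 2376 CPM at ZT15 (1.41-fold, adjusted p = 0.447). *Dnaja1*, a co-chaperone of HSP70, had 242, 255 and 258 CPM at ZT3 and 450, 385 and 361 CPM at ZT15 (1.58-fold, adjusted p = 0.331), and *Dnajb1* had means of 96.7 and 147 CPM (adjusted p = 0.439).

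The heat shock genes were not particular to these mice. In the own comparison of each other set, 9 of the 24 genes were higher at ZT15 in control mice (background 3.18% of all genes tested) and 11 in sham-injected mice (background 3.80%). *Dnaja1* was higher at ZT15 by 0.55 in control mice (unadjusted p under 0.05), by 0.64 in sham-injected mice (unadjusted p under 0.05) and by 0.66 in the libraries labelled KO, on the log2 scale. *Hspa1a* and *Hspa1b* varied widely in control mice at ZT3, where *Hspa1a* ranged from 39.3 to 406 CPM with a median of 111 CPM. For both *Hspa1a* and *Hspa1b* the interaction lay under 0.05 unadjusted, and it contains these control libraries.

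Markers of macrophages and monocytes were higher at ZT15, most of all in 1 library. Of 14 markers tested, 8 were higher and 0 lower (*Mertk*, *Fcgr1*, *Ly6c2*, *Csf1r*, *Siglec1*, *Marco*, *Cd14* and *Ccr2*), and the median log2 difference was 1.11, against 0.09 for all genes. Summed over the list, expression was 283, 329 and 311 CPM at ZT3 and 439, 1225 and 489 CPM at ZT15, so that ZT15 replicate 2 stood apart. Without this library 3 markers were higher (*Mertk*, *Fcgr1* and *Marco*) with a median of 0.66, and without ZT15 replicate 1 the count was 10. More of these cells in the sorted population and more of their RNA per cell cannot be told apart in bulk samples.

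*Fcgr1*, which encodes the high-affinity IgG receptor CD64, was measured at 0.636, 2.75 and 0.484 CPM at ZT3 and at 3.95, 23.5 and 17.3 CPM at ZT15 (log2 difference 3.01, standard error 0.72, adjusted p = 0.41, and unadjusted p under 0.05 without ZT15 replicate 2). *Mertk*, an efferocytosis receptor, was listed at 0 in 2 libraries of ZT3 and at 0.436 CPM in the other, and had 3.82, 1.87 and 1.53 CPM at ZT15. *Csf1r*, the receptor for M-CSF, had 44.3, 48.0 and 58.3 CPM at ZT3 and 96.5, 141 and 65.5 CPM at ZT15 (adjusted p = 0.493, and unadjusted p over 0.05 without replicate 2). *Cd14*, a co-receptor for LPS, had 7.43, 7.38 and 8.15 CPM at ZT3 and 11.8, 90.2 and 14.2 CPM at ZT15, and the complement gene *C1qb* had 38.1, 61.0 and 57.2 CPM against 46.4, 310 and 76.4 CPM (adjusted p = 0.717). For *Cd14* and *C1qb* the high mean at ZT15 came from replicate 2. *Adgre1*, which encodes F4/80, overlapped between the timepoints (adjusted p = 0.663). *Ms4a6d*, a myeloid membrane protein outside the list, had 6.33, 7.22 and 8.31 CPM at ZT3 and 26.8, 64.3 and 27.9 CPM at ZT15 (5.44-fold, log2 difference 2.25, adjusted p = 0.189), and its log2 difference was 1.85 without replicate 2 (unadjusted p under 0.05). *Ms4a6d* was thus separate between the timepoints in all libraries. Control mice had 2 of the 14 markers higher at ZT15 (background 3.18%), and sham-injected mice had 0 (background 3.80%; limma, unadjusted p under 0.05).

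**Figure D3:**
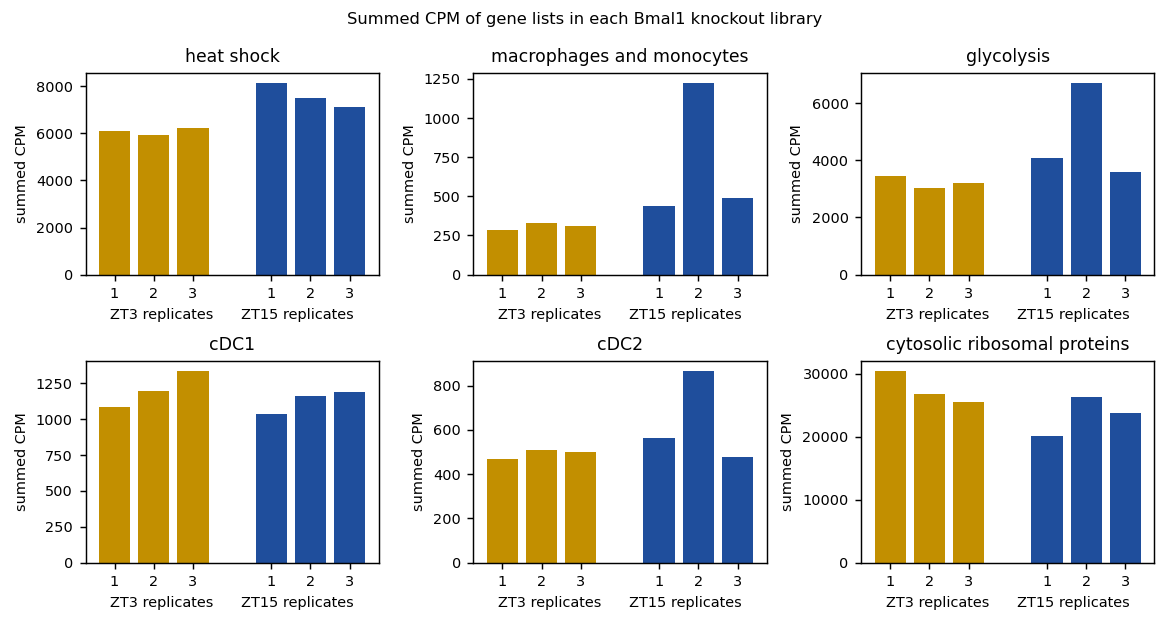
Summed CPM of 6 gene lists in each of the 3 libraries labelled KO at ZT3 (yellow) and at ZT15 (blue), with 1 bar per library and axes from 0. Heat shock genes are higher in all 3 libraries of ZT15 (7128–8149 against 5916–6243 CPM), and macrophage and monocyte markers are highest in ZT15 replicate 2 (1225 CPM).

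Of 18 glycolytic genes, 6 were higher and 0 lower (*Pfkp*, *Pfkl*, *Eno1*, *Slc16a3*, *Ldha* and *Pkm*), with a median of 0.53. The list added up to 3464, 3044 and 3203 CPM at ZT3 and to 4095, 6715 and 3578 CPM at ZT15. Without ZT15 replicate 2 the count was 2 and the median 0.23, and over all omissions of 1 library the count lay between 2 (also without ZT3 replicate 2) and 12 (without ZT15 replicate 3). With median-of-ratios scaling the count was also 2, *Pfkp* and *Pfkl*. *Pfkp* and *Pfkl*, subunits of phosphofructokinase, were the 2 genes that kept p under 0.05 without replicate 2. *Pfkp* had 79.6, 58.1 and 64.2 CPM at ZT3 and 129, 135 and 101 CPM at ZT15 (1.81-fold, adjusted p = 0.281), and *Pfkl* had 39.1, 56.2 and 64.8 CPM against 91.1, 115 and 74.5 CPM (adjusted p = 0.447). *Ldha*, lactate dehydrogenase, had 329, 263 and 335 CPM at ZT3 and 404, 808 and 383 CPM at ZT15 (adjusted p = 0.599, and unadjusted p over 0.05 without replicate 2). In control mice 9 of the 18 genes were higher at ZT15 (background 3.18%), and in sham-injected mice 0 (background 3.80%).

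Of 24 interferon-stimulated genes, 4 were higher and 0 lower at ZT15, with a median of 0.32, and the summed CPM of the list overlapped between the timepoints. *Irf7*, a transcription factor that amplifies type I interferon, had 26.2, 39.2 and 36.6 CPM at ZT3 and 57.7, 155 and 90.9 CPM at ZT15 (2.97-fold, log2 difference 1.46, adjusted p = 0.345, and unadjusted p under 0.05 without ZT15 replicate 2). *Oas3*, a sensor of double-stranded RNA, had 4.83, 7.82 and 5.47 CPM at ZT3 and 10.3, 24.1 and 12.1 CPM at ZT15 (adjusted p = 0.484). *Rsad2* and *Oas2*, the other 2 higher genes, had an unadjusted p over 0.05 without ZT15 replicate 2 or without ZT3 replicate 1, among other omissions. *Isg15* and *Ifit1* had an unadjusted p over 0.05.

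Of 14 Toll-like receptors and their adaptors, 3 were higher and 1 lower, with a median of 0.40 and overlapping sums. *Tlr8*, a sensor of single-stranded RNA, was listed at 0 in all 3 libraries of ZT3 and had 0.739, 4.42 and 2.07 CPM at ZT15 (adjusted p = 0.176). *Tlr8* was also listed at 0 in the libraries labelled KO at ZT9 and ZT21, and *Tlr4* had 1.21, 0.906 and 0 CPM at ZT3 and 1.76, 7.16 and 2.18 CPM at ZT15 (adjusted p = 0.572). The adaptor *Myd88* had means of 60.2 and 81.8 CPM (adjusted p = 0.546), and *Tlr11*, which is expressed by DCs of type 1, had 34.9, 30.8 and 26.3 CPM at ZT3 and 22.8, 13.6 and 25.4 CPM at ZT15 (adjusted p = 0.586, and unadjusted p over 0.05 without ZT3 replicate 1, ZT3 replicate 2 or ZT15 replicate 2). Without ZT15 replicate 2, *Tlr8* alone of this list was higher. Of 17 genes of the unfolded protein response, 4 were higher (*Hspa5*, *Xbp1*, *Atf6* and *Pdia4*), and the count was 1 without ZT3 replicate 1, ZT3 replicate 2, ZT15 replicate 1 or ZT15 replicate 2. *Hspa5*, the chaperone BiP of the endoplasmic reticulum, had 540, 540 and 590 CPM at ZT3 and 775, 781 and 685 CPM at ZT15 (adjusted p = 0.563). No gene of this list was higher with median-of-ratios scaling.

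Of 79 cytosolic ribosomal protein genes, 77 had a negative log2 difference, with a median of −0.26, but 0 were higher and 0 lower at p under 0.05 with limma. Their sum was 30456, 26775 and 25490 CPM at ZT3 and 20128, 26215 and 23826 CPM at ZT15, and the timepoints overlapped. Of 78 genes of oxidative phosphorylation, 63 were negative, with a median of −0.16, and 1 was higher and 0 lower. *Cox4i2* was the higher gene. The same lists had medians of the other sign in control mice (0.08 for ribosomal proteins, 0.09 for oxidative phosphorylation) and in sham-injected mice (0.36 for both), where 11 and 21 of their genes were higher at ZT15 (background 3.80%). The median of the fifth of genes with the shortest transcripts was −0.03, as given above, and the part of transcript length in these values was not tested.

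**Figure D4:**
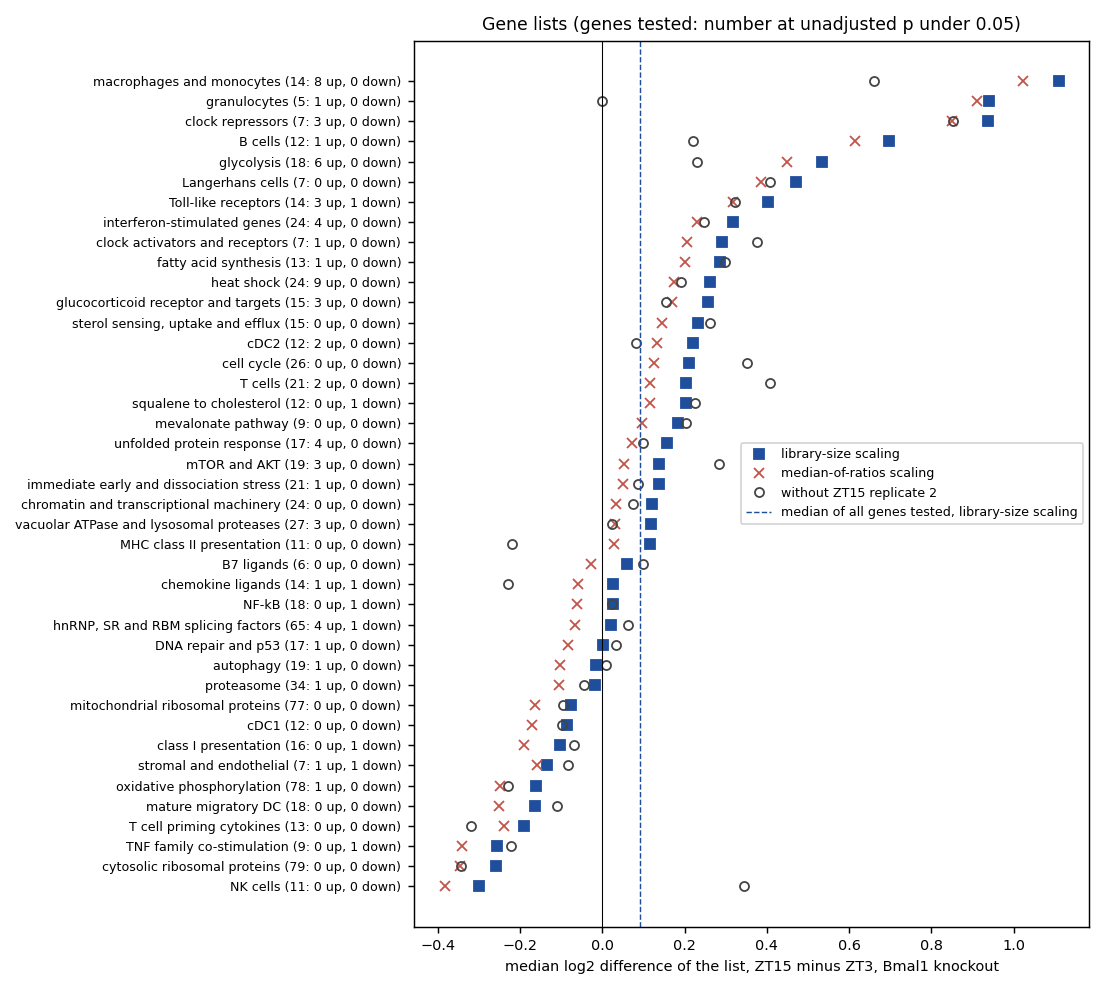
Median log2 difference (ZT15 minus ZT3, libraries labelled KO) of each list with at least 5 genes tested, with the number of genes tested and of those at p under 0.05 beside each name. Squares use the deposited scaling, crosses median-of-ratios scaling and open circles leave out ZT15 replicate 2, and the dashed line is the median of all genes (0.09). Macrophage and monocyte markers lie highest, and move from 1.11 to 0.66 without that library.

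Of 12 genes of conventional DCs of type 1 (cDC1), 0 were higher and 0 lower, with a median of −0.09, and their sum was 1087, 1195 and 1339 CPM at ZT3 and 1040, 1165 and 1187 CPM at ZT15. In control mice 6 of these 12 genes were higher (background 3.18%) and 1 lower (background 5.53%), with a median of 0.37, and in sham-injected mice 1 was higher. For 2 of the 12 genes, the interaction with control mice lay under 0.05 before adjustment (background 8.96% of all genes tested). *Irf8*, the transcription factor of this lineage, had 654 ± 114 and 582 ± 90.5 CPM (mean ± SD of 3 mice, adjusted p = 0.878). *Xcr1*, a chemokine receptor of cDC1, had 13.1, 24.3 and 20.8 CPM at ZT3 and 13.9, 13.8 and 13.1 CPM at ZT15 (adjusted p = 0.881), whereas in control mice it had means of 5.23 and 14.9 CPM (log2 difference 1.36, unadjusted p under 0.05; interaction unadjusted p under 0.05). Of 12 genes of type 2 (cDC2), 2 were higher, *Itgam* and *Clec4a4*, and 1 was without ZT3 replicate 1, ZT3 replicate 2 or ZT15 replicate 2. *Itgam*, which encodes CD11b and is shared with macrophages and monocytes, had 12.2, 11.4 and 14.8 CPM at ZT3 and 20.5, 105 and 26.8 CPM at ZT15 (adjusted p = 0.493, and unadjusted p under 0.05 without replicate 2). Of 11 MHC class II genes, 18 genes of mature migratory DCs and 13 T cell priming cytokines, 0 were higher and 0 lower in each list. The cytokines added up to 1176, 1127 and 1076 CPM at ZT3 and 845, 1007 and 986 CPM at ZT15. Of 16 class I genes 1 was lower, *B2m*, which had an unadjusted p over 0.05 when any 1 of the 6 libraries was left out. The class I list had 13 negative log2 differences, and its sum was 47416, 49205 and 49506 CPM at ZT3 and 41127, 39568 and 45018 CPM at ZT15. The sums were not tested: of 44 lists, 8 had sums at ZT15 above all of ZT3 and 4 had sums below, the cytokines and class I genes among the 4.

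*Cd80* (chromosome 16, 38457430–38495958), the co-stimulatory ligand of CD28, was measured at 14.8, 12.5 and 14.4 CPM at ZT3 and at 12.4, 16.0 and 8.98 CPM at ZT15. The timepoints overlapped (log2 difference −0.18, standard error 0.24, adjusted p = 0.883). Control mice with tumour cells had 16.3 ± 2.45 and 10.01 ± 2.10 CPM (mean ± SD of 5 mice, log2 difference −0.68, unadjusted p under 0.05), and sham-injected mice had means of 12.1 and 9.28 CPM (log2 difference −0.39, unadjusted p over 0.05). The difference of the differences was 0.50 (standard error 0.28, interaction unadjusted p over 0.05), which did not pass. Of 6 B7 ligands 0 were higher and 0 lower, with *Cd86* at 136, 165 and 148 CPM and at 249, 149 and 164 CPM (adjusted p = 0.779). Of 9 co-stimulatory genes of the TNF family, *Cd70* was lower at ZT15, with 13.2, 14.1 and 10.4 CPM at ZT3 and 5.47, 7.38 and 10.8 CPM at ZT15 (adjusted p = 0.516, and unadjusted p over 0.05 without ZT3 replicate 2 or ZT15 replicate 1). The sum of this list was 4176, 4490 and 4404 CPM at ZT3 and 3284, 3430 and 4075 CPM at ZT15, which is another of the 4 sums that lay below and were not tested. *Cd40* had 883, 956 and 928 CPM at ZT3 and 782, 669 and 798 CPM at ZT15, without overlap but with adjusted p = 0.626, and unadjusted p under 0.05 with median-of-ratios scaling.

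T cell markers added up to 729–989 CPM at ZT3 and 927–1193 CPM at ZT15, and 2 of 21 were higher (*Tcf7* and *Cd2*), of which *Cd2* had an unadjusted p over 0.05 without any 1 of the 3 libraries of ZT3, among others. *Tcf7*, a transcription factor of naive and memory T cells, had 109, 57.1 and 108 CPM at ZT3 and 144, 145 and 199 CPM at ZT15 (adjusted p = 0.472), whereas *Cd3e* had 89.4, 66.6 and 86.0 CPM against 116, 74.6 and 80.9 CPM (adjusted p = 0.9). B cell markers added up to 90.2–174 CPM and 116–222 CPM, with 1 of 12 higher and a median of 0.70 (0 and 0.22 without ZT15 replicate 2). NK cell markers added up to 117–181 CPM and 121–283 CPM, with 0 of 11 higher and a median of −0.30 (0.34 without this library). Granulocyte markers added up to 6.88–10.1 CPM and 4.15–18.1 CPM, with 1 of 5 higher and a median of 0.94, and without this library 0 were higher and the median was near 0. The part of these cells in the differences above was not tested.

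The difference between the timepoints was then compared with that in control mice with tumour cells, as an interaction of genotype and time over 32 libraries. No gene passed the adjustment (0 of 11963, limma, smallest adjusted p = 0.102), and the unadjusted p was under 0.05 for 1072 (8.96%). In 932 of these the difference was more positive in the libraries labelled KO, and in 140 more negative. The median over all genes was 0.15 with the deposited scaling and 0.03 with median-of-ratios scaling, and it rose from −0.07 in the fifth of genes with the shortest transcripts to 0.30 in the fifth with the longest. Control libraries with tumour cells had fewer reads on genes (20406763–28962673 at these timepoints) than the libraries labelled KO (29406729–55799162). Depth and genotype can therefore not be told apart in this interaction. Libraries of sham-injected mice, also labelled WT, had 35183298–49590056 reads on genes at these timepoints, within the range of the libraries labelled KO. Low depth thus went with the control libraries with tumour cells, and not with the WT label. The number of genes that passed the adjustment was 35 without ZT3 replicate 3 of the control mice, 14 without ZT9 replicate 1, 13 without ZT15 replicate 1, 4 without ZT15 replicate 3 and 1 without ZT9 replicate 3 of the libraries labelled KO.

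Among genes with a mean of at least 5 CPM, those with the smallest interaction p were *Crls1*, *5031439G07Rik*, *Klf10*, *Tbc1d10b* and *Agap3*. *Crls1* (chromosome 2, 132846650–132866786), the mitochondrial cardiolipin synthase, was measured at 3.58, 1.95 and 3.44 CPM at ZT3 and at 11.2, 21.9 and 18.7 CPM at ZT15 in libraries labelled KO. Control mice ranged from 13.2 to 20.9 CPM at ZT3 and from 14.4 to 20.7 CPM at ZT15 (interaction 2.22 on the log2 scale, standard error 0.42, adjusted p = 0.102). The libraries labelled KO at ZT3 were below all control libraries with tumour cells, and those at ZT15 overlapped with them. Sham-injected mice also had low *Crls1*, with 2.18, 11.7 and 7.92 CPM at ZT3 and 6.79, 3.97 and 2.23 CPM at ZT15, which overlapped with the libraries labelled KO at ZT3. *5031439G07Rik*, an uncharacterized gene, followed the same order, with 21.3, 19.7 and 23.1 CPM at ZT3 and 47.7, 90.6 and 69.6 CPM at ZT15, against 53.2–75.8 and 42.2–82.5 CPM in control mice and 20.1–57.0 and 29.8–34.4 CPM in sham-injected mice. *Tbc1d10b*, a regulator of Rab GTPases, had 32.7, 38.1 and 44.4 CPM and then 69.0, 93.7 and 110 CPM, against 39.8–79.6 and 52.5–77.0 CPM in control mice and 32.4–61.7 and 36.7–51.6 CPM in sham-injected mice.

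The libraries labelled KO at ZT9 were spread between these levels. Replicate 1 had 4.37 CPM of *Crls1*, 18.8 of *5031439G07Rik*, 29.5 of *Agap3* and 39.2 of *Akt1*, which is near, within or below the range of ZT3. Replicate 3 had 21.1, 48.9, 50.5 and 177 CPM of the same genes, and replicate 2 lay between them. The 4 genes were thus low or high together by library within ZT9. *Tbc1d10b* had 45.3, 52.2 and 69.0 CPM in replicates 1 to 3, in the same order, whereas *Klf10* had 4.88, 4.10 and 11.3 CPM. In the libraries labelled KO at ZT21, *Crls1*, *5031439G07Rik*, *Agap3* and *Akt1* did not all share 1 order. *Agap3* had 65.8, 64.7 and 49.0 CPM in replicates 1 to 3, and *5031439G07Rik* had 54.6, 59.0 and 36.4 CPM. Replicate 3 was lowest for both of these and for *Akt1*, but not for *Crls1*. *Crls1* had 15.2, 25.9 and 20.2 CPM in replicates 1 to 3 of ZT21, and *Akt1* had 283, 222 and 84.2 CPM. The same 4 genes also varied together in sham-injected mice at ZT3, where replicate 1 was lowest and replicate 2 highest for each. Replicate 1 had 2.18, 20.1, 14.8 and 46.4 CPM of *Crls1*, *5031439G07Rik*, *Agap3* and *Akt1*, and replicate 2 had 11.7, 57.0, 60.9 and 133 CPM. They shared 1 order in sham-injected mice at ZT9 too. At ZT15 and ZT21 of these mice, *5031439G07Rik* departed from the order of the others. The cause was not tested.

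*Agap3*, a GTPase-activating protein, had 39.2, 20.2 and 34.7 CPM at ZT3 and 73.0, 69.5 and 87.9 CPM at ZT15, against control ranges of 36.3–83.1 and 47.3–62.1 CPM and sham ranges of 14.8–60.9 and 19.96–40.6 CPM. The libraries labelled KO at ZT15 were thus above all 5 control libraries for *Agap3*, as they were for *Klf10*. *Klf10*, a transcription factor induced by TGF-β, had 6.24, 2.65 and 5.66 CPM at ZT3, within or below the control range of 4.57–7.26 CPM, and 27.3, 31.4 and 17.8 CPM at ZT15, above all control libraries (2.94–7.73 CPM; interaction unadjusted p under 0.05). Sham-injected mice had 12.2–15.1 CPM of *Klf10* at ZT3 and 4.01–11.8 CPM at ZT15. *Akt1*, a kinase downstream of CD28 and the growth factor receptors, had 53.2, 35.7 and 42.5 CPM at ZT3 and 70.2, 177 and 181 CPM at ZT15 (adjusted p = 0.571, and unadjusted p over 0.05 without replicate 2 or 3 of either timepoint), against 143–205 and 149–216 CPM in control mice (interaction unadjusted p under 0.05). *Akt1* in sham-injected mice had 46.4, 133 and 77.8 CPM at ZT3 and 72.7, 54.5 and 49.1 CPM at ZT15. Of 19 genes of mTOR and AKT signalling, 3 were higher and 0 lower (*Akt1*, *Akt1s1* and *Rptor*), and 0 were without ZT15 replicate 3 and 1 without ZT15 replicate 2, without ZT3 replicate 2 or with median-of-ratios scaling (*Akt1* in the last).

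**Figure D5:**
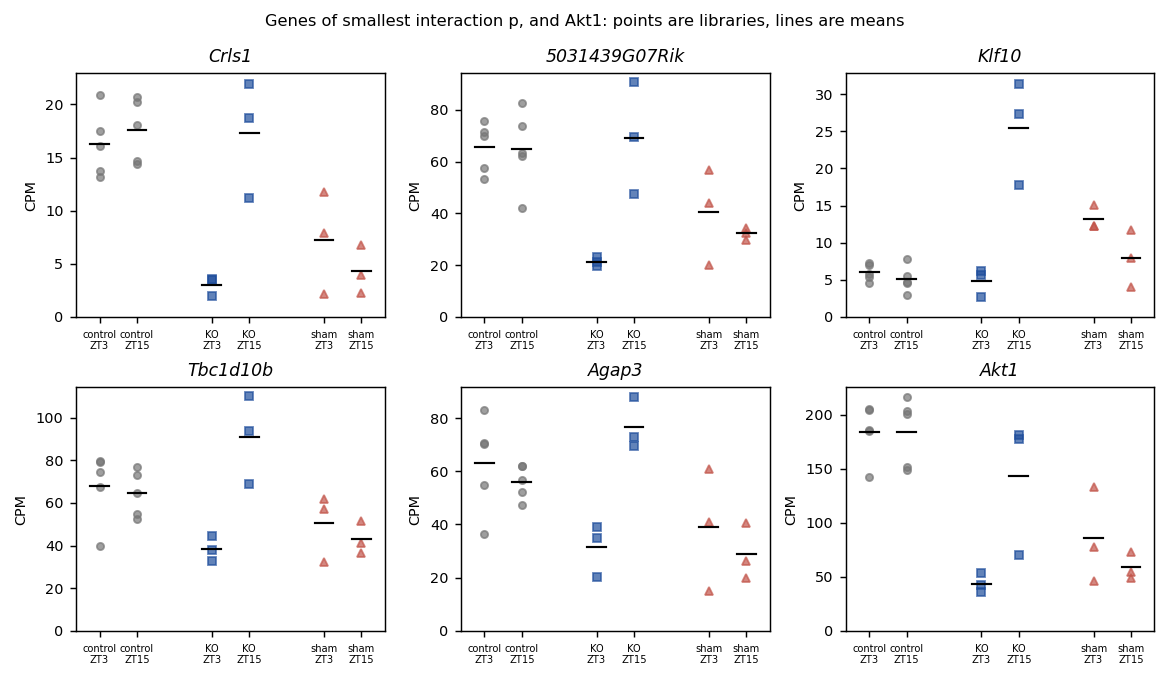
CPM at ZT3 and ZT15 of the 5 genes with the smallest interaction p and of *Akt1*, in control mice with tumour cells (grey, n = 5), libraries labelled KO (blue, n = 3) and sham-injected mice (red, n = 3), with 1 point per library and the mean as a line. For *Crls1*, *5031439G07Rik* and *Akt1* the libraries labelled KO at ZT3 lie below all 5 control libraries, and for *Klf10* and *Agap3* those at ZT15 lie above them.

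Set side by side, the libraries labelled KO had 771 higher and 193 lower genes at ZT15, and control mice had 381 higher and 662 lower, with 0 genes past the adjustment in either set (limma, unadjusted p under 0.05 for these counts). By the same test sham-injected mice had 454 higher (3.80%) and 694 lower (5.80%) genes. The genes higher in both sets numbered 53, which is 6.87% of the genes higher in the libraries labelled KO and 13.9% of those higher in control mice, beside 3.18% and 6.44% of all genes tested that were higher in control mice and in the libraries labelled KO. Those lower in both numbered 29, which is 15.03% and 4.38%, respectively, beside 5.53% and 1.61% of all genes. Genes in opposite directions numbered 18 (higher in libraries labelled KO and lower in control mice) and 3. *Cxcl9*, a chemokine for activated T cells, was one of these 3, with 16.5, 31.4 and 28.3 CPM at ZT3 and 13.1, 12.999 and 14.5 CPM at ZT15 in the libraries labelled KO (adjusted p = 0.605, and unadjusted p over 0.05 without ZT3 replicate 2, ZT3 replicate 3 or any library of ZT15), and 11.2 ± 3.16 and 22.2 ± 6.66 CPM (mean ± SD of 5 mice) in control mice (unadjusted p under 0.05; interaction unadjusted p under 0.05).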

How the data were processed

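CD45+CD11c+MHCIIhigh cells of 44 mice were profiled by single-read RNA-seq (SMART-Seq v4 and Nextera XT). The authors aligned reads to mm10 with STAR (2.7.0), counted them with HTSeq (0.9.1) and deposited 1 table of CPM, scaled by library size, for 14699 genes. About 90% of the values (90.3–90.9% in these 6 libraries, within 0.02 of a read) are whole multiples of 1 read, which gave the depth. The remaining genes, *Dbp*, *Hspa1a*, *Hspa1b*, *Dnaja1*, *Ms4a6d*, *Calm4* and *Eno1* among them, have fractions of a read in these 6 libraries, so no count test was run, and no counting interval is given.

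Groups came from the sample titles. Genes that reached 1 CPM in 5 or more of the 44 libraries were tested as log2(CPM + 0.5) with limma 3.58.1 in R 4.3.3, two-sided, with Benjamini–Hochberg adjustment over 11963 genes. ZT15 was contrasted with ZT3 in a fit of the 12 libraries labelled KO, and the interaction in a fit of the 32 tumour libraries. No pair of libraries held identical values. Named were *Arntl*, clock genes, *Cd80*, the 12 genes of smallest p in each direction and the 5 of smallest interaction p with a mean of at least 5 CPM, and up to 4 genes per list. A few genes under this rule are not reported here. *Cd3e*, *Xcr1*, *C1qb*, *Adgre1* and others outside this rule were chosen after their values were seen. The gene lists and groups were chosen with earlier results of these data known. The fits were tested on simulated data. Alternatives were other pseudocounts (1 and 0.1), median-of-ratios scaling, other filters, an intensity trend, array weights, other libraries in the fit, the replicate number as a block and omission of each library. Coordinates and promoter windows are those of RefSeq (GRCm38.p6, the build of mm10), and lengths are those of GENCODE transcripts.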

Additional observations from a re-analysis of the deposited data

Results flagged for a closer look

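In the groups of 5 control mice with tumour cells, 19 genes whose control levels are given or plotted were checked at ZT3 and ZT15, in 38 groups, for a library far from the rest, by Dixon's test at 95%. Such a test marks about 1 in 20 groups by chance. It marked 1 library of ZT3 for a pair of near-identical genes. *Hspa1a* had 406 CPM in this library, whereas the next highest had 128 CPM and the lowest 39.3 CPM. *Hspa1b* had 435 CPM in it, against 108 CPM in the next and 26.3 CPM in the lowest. The interaction of genotype and time for these genes contains this library, and the difference within the libraries labelled KO does not.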

How the results depend on the processing

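No gene passed the adjustment between ZT15 and ZT3 in the libraries labelled KO with a pseudocount of 1, median-of-ratios scaling, no filter, array weights, the 6 libraries alone or the replicate block. The count was 1 with a pseudocount of 0.1, 4 with a mean of at least 10 CPM, 7 with an intensity trend, 59 with all 44 libraries, and 0–3 when each of 12 libraries was left out. The genes higher at unadjusted p numbered 618–923 over these omissions. The lower genes numbered 127–285 over them, 324 with median-of-ratios scaling, 297 with no filter, 117 with a mean of at least 10 CPM, 311 with array weights and 338 with 44 libraries. For the interaction, 5 genes passed with an intensity trend, 21 with array weights (1721 unadjusted), and 0–35 when each of 32 libraries was left out (863–1971 unadjusted). The cause of these shifts was not tested. Of 111 genes named by the rule, 82 had p under 0.05, all 82 kept their sign in each alternative that tested them (22, or 21 for 22 genes), and 44 kept p under 0.05 in each of these. Libraries of ZT3 and ZT15 that share a replicate number correlated with r of 0.02, 0.02 and 0.09 in their deviations. Pairs of unlike number were not compared, so these values cannot decide whether the numbers pair the mice. With the replicate block 732 genes were higher and 177 lower, 0 passed the adjustment, and no count moved by over 1.5 times. The p-values within the libraries labelled KO measure the spread between mice of the same timepoint, pooled over 4 timepoints with 3 mice each. Those of the interaction pool this spread over the 32 tumour libraries.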
